A study of Rattus norvegicus with 53 samples.

Results

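Lumican (Lum) and osteomodulin (Omd, also called osteoadherin) are 2 of the 32576 genes measured in whole eyes of heterogeneous stock (HS) rats, and were found in the data by their deposited start positions. They were chosen as members of 1 gene family, with earlier results of these data known. Both names come from the study's list of genes with an eye expression QTL, a link between expression and nearby genotype. That list was drawn from these same eyes. The eyes came from rats of an outbred population descended from inbred founder strains and were collected within a genome-wide association study of intraocular pressure. RNA from whole eyes, 1 per rat, was sequenced after the extraocular muscles had been taken off, and 51 eyes form a single group with no control group. Some of the rats had been tested for behaviour and had self-administered nicotine, and which ones, and their sex and age, are not given in the labels. In 11 of the 51 eyes the label had been corrected by the authors after comparison with DNA genotypes, and 40 kept the original label. The genotype at any locus was not used here. In bulk eyes, fewer cells of a type and less RNA per cell cannot be told apart.

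Both proteins belong to the small leucine-rich proteoglycans (SLRPs), secreted proteins built of leucine-rich repeats that bind collagen and set the width and spacing of its fibrils. Lumican carries keratan sulfate in the corneal stroma, where evenly spaced thin fibrils let light through, and it is also made by fibroblasts of the sclera and skin. Osteomodulin is best known as a keratan sulfate proteoglycan of mineralised matrix, made by osteoblasts and odontoblasts. Fibromodulin (Fmod), a close relative of lumican that binds the same collagen, is the other family member that could be named in these data.

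Lum starts at position 38819771 of chromosome 7 on the plus strand of Rnor_6.0, and Omd at position 14637832 of chromosome 17 on the minus strand. In RefSeq's annotation of GRCr8, a later build, Lum lies between Dcn and Kera, and Omd between Ogn and Aspn, all of them genes of the same family. Omd also lies inside the span of Cenpp, a centromere protein gene on the other strand, and no source used here says whether reads were counted by strand, so reads of the overlap are uncertain. The 250 bases before each start, from RefSeq on GRCr8, are shown because they are the control sequence nearest to both genes. They lie at chr7:34245456-34245705 on the plus strand for Lum and at chr17:15274871-15275120 on the minus strand for Omd, and capitals mark matches of the motifs given after them.
Lum: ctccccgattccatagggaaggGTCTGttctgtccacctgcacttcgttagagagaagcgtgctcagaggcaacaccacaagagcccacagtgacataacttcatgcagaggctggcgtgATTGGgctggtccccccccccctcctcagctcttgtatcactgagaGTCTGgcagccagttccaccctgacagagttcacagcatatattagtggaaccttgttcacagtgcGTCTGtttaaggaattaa
Omd: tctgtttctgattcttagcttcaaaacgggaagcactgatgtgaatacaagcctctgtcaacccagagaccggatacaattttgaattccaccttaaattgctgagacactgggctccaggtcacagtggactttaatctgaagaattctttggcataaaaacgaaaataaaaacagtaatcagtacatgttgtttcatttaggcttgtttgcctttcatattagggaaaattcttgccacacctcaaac
Motifs were searched on both strands. They were the TATA box with the letters TATAAA, the CCAAT box, the GC box with the letters GGGCGG, the AP-1 motif TGANTCA and the motif CAGAC, which Smad proteins bind. In the Lum window CCAAT matched once, on the minus strand 130 bases before the start, and CAGAC matched 3 times, on the minus strand beginning 228, 84 and 18 bases before the start. None of these matches overlapped another. The Omd window held no match of the 5 motifs, which says only that these letters are not in this window. Among 33469 RefSeq windows of the same kind, the Smad motif was found in 42.9%, the CCAAT box in 34.02%, the GC box in 30.5%, the TATA box in 12.9% and the AP-1 motif in 6.34%. The Lum window was 52.8% G and C and held 5 CG pairs, and the Omd window was 38.8% G and C and held 3, against medians of 51.2% and 5 over all windows.

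Lum was measured in every eye, and its level differed widely between rats. In CPM, counts scaled so that those of every eye add up to 1000000, Lum ran from 0.261 CPM through a median of 2.82 CPM to 15.9 CPM, and the quartiles were 1.61 and 4.999 CPM. The mean was 3.88 CPM ± 3.20 (SD, n = 51), so the SD was 82.6% of the mean. The levels formed a continuous series: 6 eyes were under 1 CPM, 13 were over 5 CPM and 3 were over 10 CPM. The highest and lowest eyes differed 61.0-fold. These are low counts. The lowest eye, eye 31 in order of deposit, had 5 expected counts and an exact Poisson 95% interval of 0.0847 to 0.609 CPM. The highest, eye 33, had 297 expected counts and an interval of 14.1 to 17.8 CPM. The next levels inward were 0.35 and 10.9 CPM, so the highest eye stood above the rest by more than its counting interval and the lowest did not stand apart. Of the 50 pairs of neighbours in the order of levels, 49 had overlapping intervals, as the plot of Lum by eye shows.

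**Figure D1:**
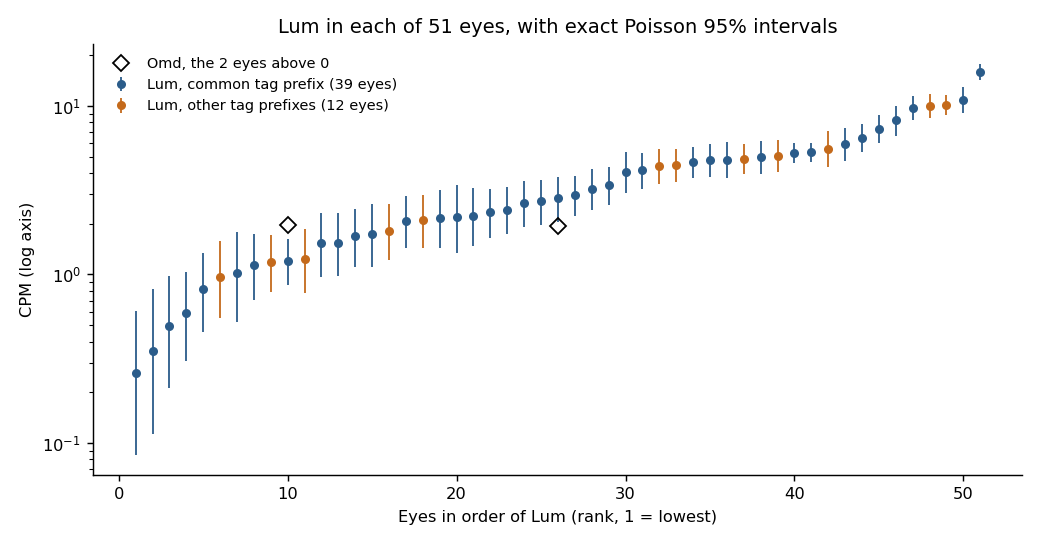
Lum in each of 51 eyes in order of level, in CPM on a log axis, with exact Poisson 95% intervals, which cover counting error only. Blue points are the 39 eyes whose identity tag has the most common prefix and orange points the 12 others, and diamonds give Omd in the 2 eyes where it was above 0. Lum runs from 0.261 to 15.9 CPM without a gap into groups, and both colours spread over most of the range.

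On the scale of log2(CPM + 1), used for all comparisons below, the SD of Lum between eyes was 0.88, larger than the SD of 96.7% of the 13844 genes whose median reached 1 CPM. Counting error at these depths would give an SD of 0.15, or 2.96% of the variance. The SD was 0.89 with median-of-ratios scaling, 1.23 with a pseudocount of 0.1 CPM and 1.30 on the deposited values without scaling. Of Lum's variance in rank-normalised values, 25.1% lay on the first 5 principal components of expression and 62.8% on the first 20, while the median gene, of 20190 seen in at least 1 eye, had 37.1% and 70.8%. The component that held most of it was the sixth, with 23.9% of Lum's variance and 2.74% of all variance. The shares on the first 5 and on the first 20 components were both lower for Lum than for the median gene.

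Total counts ran from 9109084 to 42146827 per eye with a median of 16193478, and 3 counts, the limit that a count of 0 allows, are 0.0712 CPM in the deepest eye and 0.329 CPM in the shallowest. No relation of Lum with depth was detected (Pearson's r = -0.03, permutation p = 0.857, Spearman's rho = -0.08, permutation p = 0.554), and without the 2 eyes of most extreme depth r was -0.16. Against the share of counts from mitochondrial genes, which ran from 0.418% to 8.91%, r was 0.10 (permutation p = 0.467) and rho 0.09 (permutation p = 0.541), and without the 2 eyes of most extreme share r was -0.00284. Against the number of genes above 0, r was -0.02 (permutation p = 0.873) and rho 0.13 (permutation p = 0.365), and without the 2 most extreme eyes r was 0.17. Adjusted over these 3 relations by Benjamini-Hochberg, p was 0.873 for each r. Within the 39 eyes of the common tag prefix and the 12 others, r was -0.00429 and -0.18 for depth, 0.20 and -0.13 for the mitochondrial share, and -0.03 and 0.02 for the number of genes. In 3 eyes, 7, 39 and 44, the median correlation with the other eyes was 0.888 to 0.910, below the 0.924 or more of the rest, and their Lum was 2.09, 0.591 and 4.41 CPM, inside the range of the others.

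Label history was the other recorded difference between eyes. Lum had a median of 4.41 CPM in the 11 eyes with a corrected label (1.54 to 10.2 CPM) and 2.57 CPM in the 40 others (0.261 to 15.9 CPM). The difference of means was 0.34 on the log2 scale, with overlapping groups (two-sided permutation test, p = 0.26, adjusted p = 0.994 by Benjamini-Hochberg over 4 tests, those of Omd below included). Between the 12 eyes of other tag prefixes and the 39 of the common prefix the difference was 0.20 (permutation p = 0.497, adjusted p = 0.994), with medians of 4.44 and 2.72 CPM. What the prefix stands for is not given in the labels.

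Omd, by contrast, was listed at 0 in 49 of the 51 eyes. Eye 13 had 69.03 expected counts, or 1.97 CPM (exact Poisson 95% interval 1.53 to 2.50), and eye 35 had 31 expected counts, or 1.94 CPM (1.32 to 2.76). The intervals of these eyes overlapped, and both lay above the 0.0712 to 0.329 CPM that a count of 0 allows in a single eye. Both eyes kept their original label and had the common tag prefix, so the 11 corrected and 12 other-prefix eyes were all at 0 (two-sided permutation tests, p = 1 and adjusted p = 1 for both splits). With both eyes in the larger group of each split, no other p was possible, so these tests say nothing about label or prefix. Eye 13 was the third deepest of the 51, with a total of 34999539 counts, and eye 35, with 15946158, was near the median. The part of depth in Omd's detection was not tested.

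Lum was not high in the eyes with Omd. It was 1.20 CPM in eye 13, the 10th lowest of 51, and 2.82 CPM in eye 35, the 26th, which is the median eye. In the 49 eyes without Omd, Lum ran from 0.261 through a median of 2.94 to 15.9 CPM, and both values lie inside that range. Fmod was 36.3 and 62.8 CPM in the same eyes, inside its range of 14.6 to 87.6 CPM over all eyes. Since 49 eyes share 1 value of Omd, no correlation between Omd and Lum or any other gene was computed. An all-or-none pattern at this level was rare: 463 of the 32576 genes were at 0 in exactly 49 eyes, the median of the lower of the 2 remaining counts was 1, and in 3 of these genes, Omd among them, both remaining eyes had at least 30 counts.

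None of the genes around Omd shared its pattern. Of 18 gene starts within 0.5 Mb, none of which could be named, 8 were at 0 throughout and in 3 the median reached 1 CPM. One of them, at position 14828329, was also at 0 in 49 eyes, but reached at most 0.247 CPM and was at 0 in both eyes with Omd. The nearest, 9.89 kb away at position 14627937, was above 0 in all eyes, from 3.60 through 22.5 to 57.0 CPM, and read 20.8 and 15.5 CPM in the eyes with Omd, the 22nd and 18th lowest of 51. A gene starting at 14589154, 48.7 kb away, ran from 0 in 4 eyes through 6.67 to 19.8 CPM and read 3.44 and 2.26 CPM in those eyes. The gene starting at 15094805 ran from 3.70 through 7.19 to 12.1 CPM and read 7.83 and 7.09 CPM. Around Lum, 7 other genes start within 0.5 Mb, of which 3 were at 0 throughout and 1 had a median above 1 CPM. That gene, 77.72 kb before Lum at position 38742051, ran from 3.45 through 23.98 to 52.5 CPM. On the other side of Lum, genes starting at 38858062, 38897278 and 38945836 were at 0 in 23, 42 and 50 eyes and reached at most 1.10, 0.739 and 0.273 CPM. So Lum and Omd each lie beside a gene at over 20 CPM in the median eye and among several that were near 0.

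**Figure D2:**
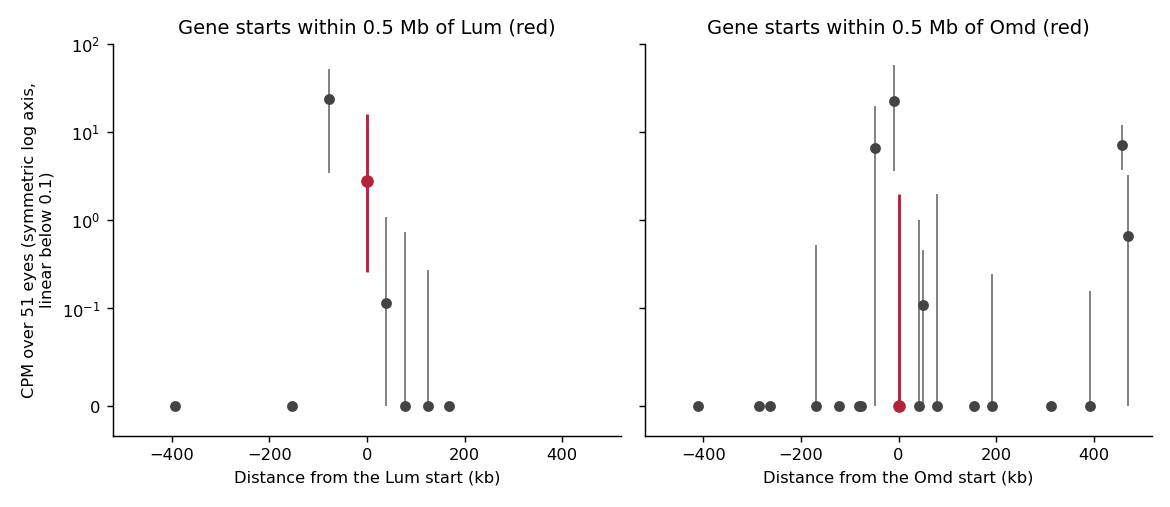
Levels of all gene starts within 0.5 Mb of Lum (left) and Omd (right), by distance in kb from that start, in CPM on a symmetric log axis that is linear below 0.1. Points are medians over 51 eyes and bars the range, red for Lum and Omd. Beside Lum a gene at a median of 23.98 CPM stands before it, and Omd at a median of 0 stands beside a gene at 22.5 CPM.

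The question of which genes vary with Lum was put to all 13843 other genes whose median reached 1 CPM, by limma's moderated test of the slope on Lum, the change in log2(CPM + 1) per unit of log2(CPM + 1) of Lum. At an adjusted p under 0.05 (Benjamini-Hochberg), 105 genes rose with Lum, 0.759% of those tested, and 4 fell with it, 0.0289%. At an unadjusted p under 0.05, 690 genes had positive and 433 negative slopes, and over all tested genes the median slope was 0.00238, with 51.5% positive. The slopes of the 105 genes ran from 0.18 to 0.77 with a median of 0.39, and those of the 4 from -0.29 to -0.17. The 109 genes lay on 22 chromosomes, 7 of them on chromosome 7, and none of the 15 mitochondrial genes tested was among them. Their median levels ran from 1.08 to 1181 CPM. With the first 20 expression components as covariates, limma called 0 genes, and 603 had an unadjusted p under 0.05. With 5 components 22 were called, 15 of them among the 109. The components were computed from the same genes, Lum included, so using them as covariates removes variation that genes share with Lum. A loss of calls in these settings is therefore partly built in.

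The count also rested on single eyes. Leaving out 1 eye at a time gave 37 to 136 calls, and 33 of the 109 genes were called whichever eye was left out. The count was moved by over 1.5 times by 10 eyes. It was 37 without eye 33, which had the most Lum, 45 without eye 42, 48 without eye 40, 52 without eye 25 and 58 without eye 13. It was 59 without eye 8, 66 without eye 22, 68 without eye 32, 70 without eye 51 and 71 without eye 43. Lum in these 10 eyes was at 1.2 CPM or lower or at 5.96 CPM or higher, and the plot of counts against Lum shows that eyes from the middle of the range moved the count less.

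**Figure D3:**
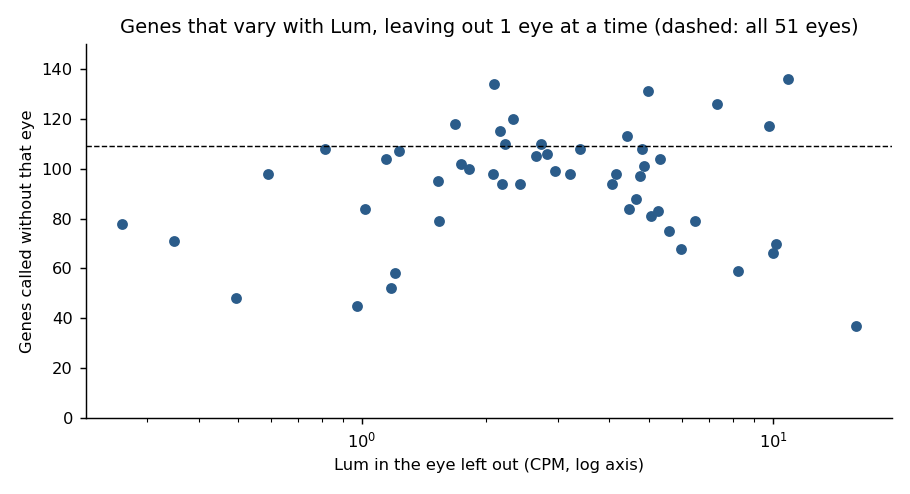
Number of genes called as varying with Lum (limma, adjusted p under 0.05) when 1 eye is left out, against the Lum level of that eye in CPM on a log axis. Each point is 1 of 51 eyes and the dashed line is the count of 109 with all eyes. The lowest count, 37, is without the eye of highest Lum, and the highest is 136.

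The gene with the smallest p against Lum was its neighbour 77.72 kb away, ENSRNOG00000004554, which the sources used here do not pair with a symbol. By order it may be Dcn, the SLRP gene that RefSeq places next before Lum on GRCr8. Its identity was not settled here, since no gene ID links the builds. The slope of this neighbour was 0.58 ± 0.09 (SE, n = 51, limma adjusted p = 0.000236). In eye 33, with the most Lum, it was at 42.7 CPM, and in eye 31, with the least, at 9.39 CPM. Pearson's r was 0.68 and Spearman's rho 0.68 (permutation p = 1e-05 for both, the smallest that 100000 permutations can give, with no account of the choice among all genes). With the 2 eyes of most extreme Lum (6 and 33) left out r was 0.65, and it was 0.66 in the 39 eyes of the common prefix and 0.73 in the 12 others. The call held whichever eye was left out, with adjusted p at most 0.00114, and in every alternative but 20 components, where the slope was 0.12 ± 0.09 (adjusted p = 0.9998). Next came ENSRNOG00000021213, starting at position 198726118 of chromosome 2, at 25.5 through 56.3 to 87.9 CPM, with a slope of 0.26 ± 0.04 (limma adjusted p = 0.00129).

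Among the 705 tested genes reported by name, which are almost all genes for which the study listed an eye expression QTL, 7 were called, 0.993%, against 0.787% of all genes tested in either direction. All 7 had positive slopes, as did 105 of the 109 calls over all genes. First was Tyr, the melanin-forming enzyme tyrosinase, at 2.04 through 13.4 to 47.7 CPM. Its slope was 0.67 ± 0.12 (limma adjusted p = 0.00338), and Tyr read 46.5 CPM in the eye with most Lum and 8.29 CPM in the eye with least. Its r with Lum was 0.59 and rho 0.61 (permutation p = 1e-05 for both), and r was 0.54 without eyes 6 and 33, 0.60 within the common prefix and 0.57 within the others. The points were scattered. The 3 eyes with Tyr under 3 CPM, eyes 37, 40 and 44, had Lum at 2.72, 0.494 and 4.41 CPM. Enpp1, which makes extracellular pyrophosphate and so limits mineralisation, ran from 6.67 through 11.3 to 27.3 CPM with a slope of 0.27 ± 0.06 (adjusted p = 0.00759). Nnt, the mitochondrial transhydrogenase, ran from 23.6 through 51.1 to 85.0 CPM with a slope of 0.25 ± 0.05 (adjusted p = 0.00784). Aebp1, which encodes a secreted protein that binds fibrillar collagen, ran from 3.23 through 13.7 to 30.1 CPM with a slope of 0.46 ± 0.10 (adjusted p = 0.0122). Leaving out any 1 eye ended none of these 4 calls. Among the 39 eyes of the common prefix alone the call was kept for Tyr (slope 0.65, adjusted p = 0.0345) and lost for Enpp1 (0.23, adjusted p = 0.161), Nnt (0.21, adjusted p = 0.0662) and Aebp1 (0.34, adjusted p = 0.319). With 5 components as covariates Enpp1 (adjusted p = 0.0713) and Nnt (0.102) were also lost, and on inverse normal ranks Aebp1 was (0.0899).

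**Figure D4:**
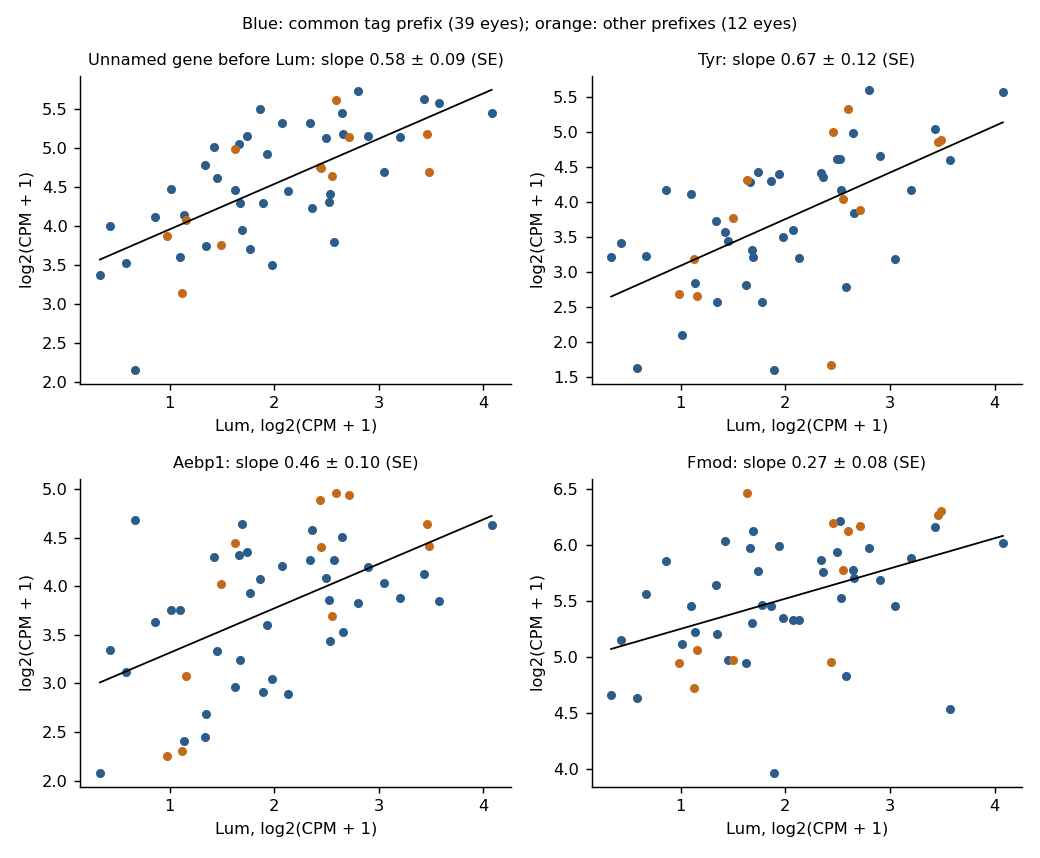
Each of 51 eyes by Lum (x axis) and another gene (y axis), both as log2(CPM + 1), blue for the common tag prefix and orange for the others, with the limma slope as a line. The slopes are 0.58 for the unnamed neighbour, 0.67 for Tyr, 0.46 for Aebp1 and 0.27 for Fmod, and eyes of both colours lie along each line.

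The other named calls were nearer to the threshold. Slc26a7, an anion exchanger, had a slope of 0.44 ± 0.11 (adjusted p = 0.0333), and Islr, a secreted leucine-rich repeat protein, 0.43 ± 0.11 (adjusted p = 0.0401). Ctsc, the lysosomal protease cathepsin C, had a slope of 0.22 ± 0.06 (adjusted p = 0.0401). There were 9 eyes for Slc26a7, 18 for Islr and 19 for Ctsc whose absence alone ended the call. The calls of all 3 were also lost in the 39 eyes of the common prefix (adjusted p = 0.138, 0.48 and 0.144), on inverse normal ranks (0.102, 0.111 and 0.111), with 5 components (0.233, 0.136 and 0.14) and over all genes above 0 in any eye (0.0596, 0.0705 and 0.0641). Their levels ran from 1.42 through 9.62 to 33.3 CPM for Slc26a7, from 0 in 1 eye through 6.01 to 11.8 CPM for Islr and from 7.20 through 19.96 to 33.5 CPM for Ctsc. The next 5 positive slopes were not called: 0.51 ± 0.14 for Slc6a20, a proline transporter (adjusted p = 0.0592), 0.15 ± 0.04 for Sdc4, a cell surface heparan sulfate proteoglycan (0.0821), 0.27 ± 0.08 for Fmod (0.0871), 0.29 ± 0.08 for the inflammasome gene Nlrp1a (0.0941) and 0.19 ± 0.06 for Scpep1, a serine carboxypeptidase (0.196).

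No named gene fell with Lum at an adjusted p under 0.05. The smallest p was that of Cxcl14, a chemokine, at 59.1 through 135 to 217 CPM, with a slope of -0.21 ± 0.06 (limma adjusted p = 0.112). The next were Gpd1, the cytosolic glycerol-3-phosphate dehydrogenase, at -0.21 ± 0.07 (adjusted p = 0.161), Pithd1 at -0.14 ± 0.05 (0.181), the phosphatase gene Ptprr at -0.16 ± 0.05 (0.202) and the lipase family gene Pnpla1 at -0.23 ± 0.08 (0.218). Slc13a5, a citrate transporter, Pbld1 and Tsen34l1 had slopes of -0.20, -0.46 and -0.13, with adjusted p from 0.256 to 0.259. The genes that were called with a negative slope had no name. The pair with the smallest p were ENSRNOG00000043060, at 3.93 through 8.99 to 18.3 CPM with a slope of -0.21 ± 0.05 (limma adjusted p = 0.0309), and ENSRNOG00000050630, at 15.8 through 26.9 to 59.5 CPM with a slope of -0.17 ± 0.04 (adjusted p = 0.0413). Both calls were lost in the 39 eyes of the common prefix, with slopes of -0.21 and -0.17 (adjusted p = 0.162 and 0.31). On the deposited values without scaling the slopes were -0.06 and -0.01 (adjusted p = 0.468 and 0.866), and there 229 genes rose and 0 fell.

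Within the SLRP family 17 genes were listed and 3 could be named. The unnamed neighbour of Lum that may be Dcn, with a slope of 0.58 (limma adjusted p = 0.000236), is not counted among these 3. By the same rule of order the gene starting at 38858062, after Lum, may be Kera. It was at 0 in 23 eyes, with r = 0.015 against Lum. Beside Omd the gene starting at 14627937 may be Ogn, with a slope of 0.38 ± 0.12 (limma adjusted p = 0.196). The gene starting at 14679409 may be Aspn, at 0 in 37 eyes, with r = 0.12 against Lum. None of these identities was settled here. Fmod, the single relative that could be tested by name, was above 0 in all eyes, from 14.6 through 46.4 to 87.6 CPM. The SD of Fmod on the log2 scale was 0.55 against 0.88 for Lum. Its slope on Lum, 0.27 ± 0.08, did not pass the test over all genes (limma adjusted p = 0.0871). Its r with Lum was 0.43 (permutation p = 0.0013) and rho 0.48 (permutation p = 0.00033), and r was 0.32 in the 39 eyes of the common prefix and 0.71 in the 12 others. Fmod passed without eyes 6 and 33 (slope 0.35, adjusted p = 0.0231), without the 3 eyes least like the others (slope 0.30, adjusted p = 0.0256) and on unscaled values (slope 0.27, adjusted p = 0.0112), and with 20 components the slope was 0.00422.

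The matrix genes that could be named were read beside the 0.787% of all tested genes that were called. At that share most genes of any list are not called, so counts of 0 here say nothing about matrix genes. Of 2 testable genes of fibrillar collagen and its assembly, Aebp1 was called, and Col5a3, a chain of type V collagen at 27.4 to 571 CPM, had a slope of 0.26 ± 0.18 (limma adjusted p = 0.802). Of 18 other secreted matrix and matricellular genes reported here, 1 rose, Islr, and none fell, beside 0.759% and 0.0289% of all genes tested, and the median slope was -0.02, against 0.00238 over all genes tested. In that list Cnmd, the cartilage protein chondromodulin, had a slope of 0.13 ± 0.08, Col9a1, a collagen of the vitreous, 0.12 ± 0.09, the osteopontin gene Spp1 -0.16 ± 0.09 and Sparcl1, a matricellular protein, -0.09 ± 0.03, with adjusted p from 0.417 to 0.83. Tnc, tenascin C, at -0.05 ± 0.05 and Spon1, F-spondin, at -0.000141 ± 0.03 lay near 0. The 6 genes of glycosaminoglycan synthesis and breakdown had slopes from -0.03 to 0.06, and none was called. They include Ugdh, which makes the UDP-glucuronate that the chains are built from, at 0.06 ± 0.05, and Chst3, a chondroitin sulfotransferase, at 0.02 ± 0.11. Of the metalloproteinase list Mmp15 could be tested, with a slope of 0.03 ± 0.05.

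**Figure D5:**
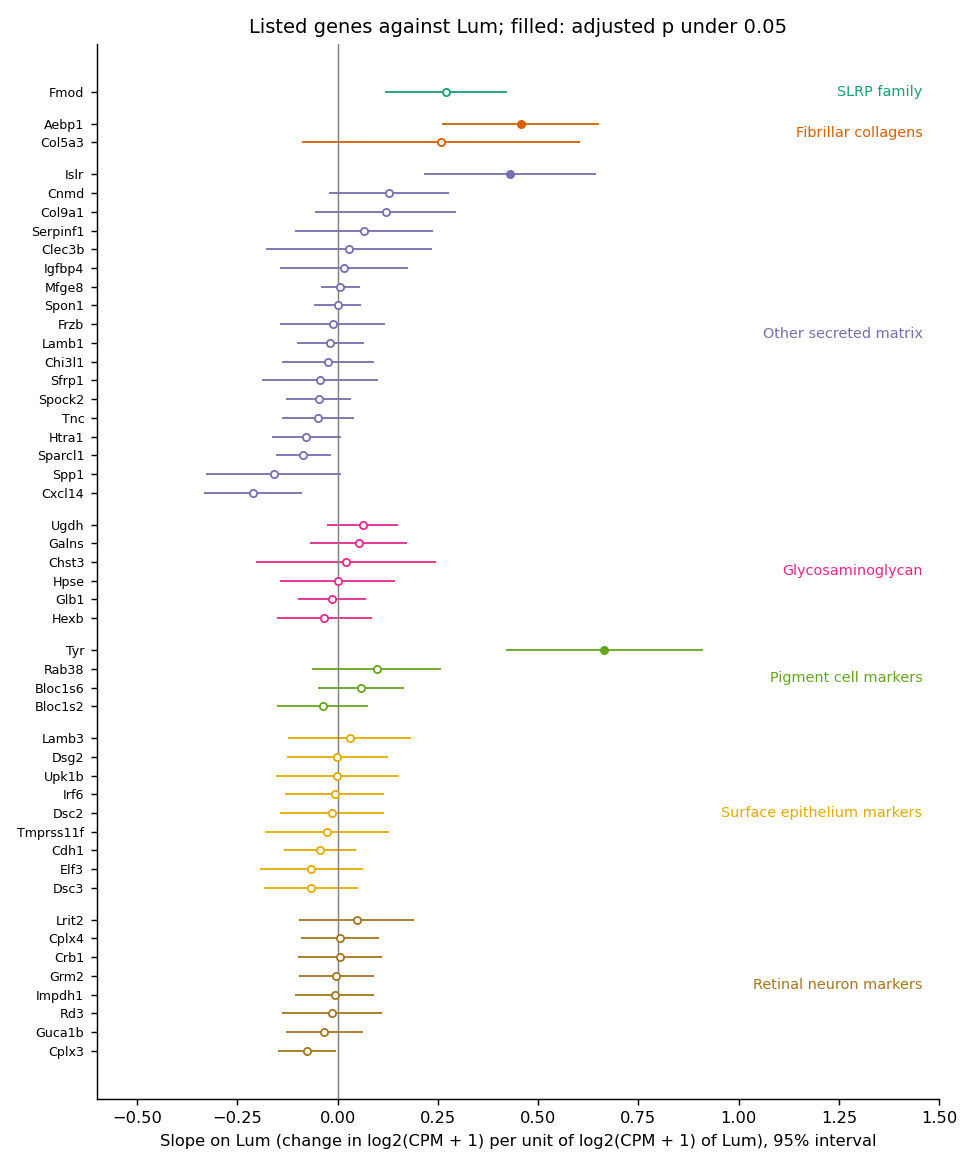
Slope on Lum of each testable named gene of 7 lists (points) with 95% intervals, in log2(CPM + 1) per unit of log2(CPM + 1) of Lum over 51 eyes. Filled points have an adjusted p under 0.05. Aebp1, Islr and Tyr are filled at 0.43 to 0.67, and the retinal and surface epithelium markers lie within 0.08 of 0.

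The markers of other cells that a whole eye holds were read beside these results. With 0.787% of all genes called, lists this short would mostly hold no call, so their counts of 0 say nothing about these cell types. Of 9 testable surface epithelium markers none was called, and the slopes ran from -0.07 (Dsc3, a desmosomal cadherin) to 0.03 (Lamb3, a laminin chain), with a median of -0.01. Of 8 retinal neuron markers none was called, with slopes from -0.08 to 0.05, and of 4 markers of Muller glia and astrocytes none, with slopes from -0.06 to 0.05. Of 5 myeloid markers none was called, and their highest slope was 0.12 for Cd14. In the pigment list Tyr was called and Rab38 (0.10 ± 0.08), Bloc1s6 (0.06 ± 0.05) and Bloc1s2 (-0.04 ± 0.06), which serve melanosome traffic, were not. Sync and Igfn1, muscle genes, had slopes of 0.15 ± 0.09 and -0.01 ± 0.15, Hbb, a haemoglobin chain, 0.07 ± 0.14 and Six3, a lens and eye field factor, -0.07 ± 0.06. The listed markers without a name, among them the keratins of the cornea and the crystallins of the lens, could not be read, and 70 of the 147 listed genes are reported by name. The part of tissue composition in the slopes on Lum was not tested.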

How the data were processed

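Whole-eye libraries of polyA RNA were sequenced as 150 bp read pairs. Per the labels and the study's methods, the authors aligned them to Rnor_6.0 with STAR and used GATK and RSEM, with versions and annotation not stated there. The deposited values hold, on a log2 scale, each RSEM expected count plus 1, unscaled. The 2 eyes without a genotype match were removed by the authors are not analysed here. Here the log2 was undone, each eye was scaled to 1000000 counts, and log2(CPM + 1) was taken. No length is given, so levels were not compared between Lum and Omd. Genes were named by start position from the study's eQTL table (778 of 778) and its table of candidate genes (7, within 500 bp), and no row matched RefSeq by gene ID. Slopes were tested with limma 3.58.1 (trend, Benjamini-Hochberg) in R 4.3.3, with Python 3.11.15, numpy 2.4.6 and scipy 1.17.1 for the rest. Permutation tests were two-sided with 100000 permutations, and Poisson intervals cover counting error only. Named genes are the 12 positive and 8 negative slopes of smallest p among named genes, listed genes, and gene starts within 0.5 Mb, and 1 gene that the rule takes is not reported here by name. The members and lists were chosen with earlier results of these data known. Each eye is a different rat, and relatedness between rats was not modelled. Alternatives were other scaling, pseudocount, ranks, components, filters and subsets of eyes.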

Additional observations from a re-analysis of the deposited data

How the results depend on the processing

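The 109 genes that varied with Lum became 112 with median-of-ratios scaling, 104 with a pseudocount of 0.1 CPM, 122 without eyes with a corrected label and 154 without the 3 eyes least like the others, a setting chosen after seeing the data, as was leaving out single eyes. In these 4 settings, in the order given, 107, 97, 98 and 103 genes were among the original calls. The count moved further to 229 on the values as deposited, where depth is not removed, to 61 over all genes above 0 in any eye, where more genes are tested, to 61 without eyes 6 and 33, those farthest from Lum's median, to 27 on inverse normal ranks, to 22 with 5 components, to 0 with 20 components and to 11 in the 39 eyes of the common tag prefix. Leaving out 1 eye gave 37 to 136. For the other moves the cause was not tested. For 13 slopes in 11 settings, 93 of 143 kept their side of the threshold, 47 lost the call, 3 gained it and 0 changed sign. The planned correlation of Lum with Omd, with its alternatives, and the planned slopes on Omd were left out, since 49 eyes share 1 Omd value and such a fit would set 2 eyes chosen by Omd against the rest. No paired analysis was possible because the eyes form 1 group and no number pairs them. At a median of 45 Lum counts per eye, differences between single eyes of like level were within counting error.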
